A study of Mus musculus with 12 samples.

Results

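The genes described here are 35 cytokine and chemokine ligands, chosen by name and function out of the 41091 genes in the count tables. They comprise 8 CC chemokines, 7 CXC chemokines, the CX3C chemokine Cx3cl1, 5 members of the IL-1 family, 5 of the IL-6 family, 4 other interleukins, both CSF1 receptor ligands, Tnf and 2 TGF-beta genes. All 35 had reads, and all 35 passed the low-count filter in the fit behind each of the comparisons below. In some alternative fits, at 1 hr and across the time points, fewer were tested, down to 32 where at least 10 counts were asked of every library. RNA-seq was carried out on acute hippocampal mini-slices from male C57BL/6 mice, wild type and 2 to 3 months of age. The dentate gyrus had been trimmed away and the slices had recovered for 2 hr after cutting. Chemical long-term potentiation (LTP) was induced in some of the slices of each animal with 50 uM forskolin, which activates adenylyl cyclase, given for 10 min, with 30 mM KCl and 10 mM calcium added after the first 5 min. The other slices of the same animal received 0.2% DMSO, the vehicle, for 10 min and are the time-matched controls. Slices were frozen 1 hr or 3 hr after stimulation, which gave 4 groups (control 1 hr, LTP 1 hr, control 3 hr, LTP 3 hr) of 3 libraries each, 1 per animal. All slices, controls included, were cut, recovered and perfused in the same way, and no uncut hippocampus is among the samples. LTP slices were taken forward by the study only after qPCR of Arc and Homer1 had shown induction, so the LTP groups are selected for response to the stimulus. The labels do not say whether the animals at 1 hr and 3 hr were different ones, and in any comparison across time the time point and the animals cannot be told apart.

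Total counts per library ran from 37118382 to 50815001, and 3 counts, taken as the limit of detection, corresponded to 0.0584 to 0.0792 CPM (counts scaled to a common library size) depending on the library. Replicate 2 of control 1 hr, which the study had set aside after clustering, was left out of the fits here too, and member calls that change when it is put back are given below. Per-animal ratios and counts of animals at 1 hr do use this library, as the control of animal 2. Replicates 2 and 3 of LTP 3 hr lay farthest apart of any 2 libraries of one group (chi-square of 85.6 per degree of freedom, against 9.49 for the closest pair), and member calls that depend on either are given with and without it. The induced gene Arc rose by 1.99 on the log2 scale at 1 hr (SE 0.08, adjusted p = 3.57e-09) and by 1.30 at 3 hr (SE 0.06, adjusted p = 3.21e-05, edgeR quasi-likelihood test), in 3 of 3 animals at each time. Since samples had been chosen by their Arc qPCR, this rise is no independent check of induction. Neuronal and astrocyte markers were abundant in every library, and 3 markers of dentate granule cells (Prox1, Dsp and C1ql2) still summed to between 112 and 213 CPM in the fitted libraries after trimming. In bulk RNA of this kind, fewer cells of a type and less RNA per cell cannot be told apart.

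Cytokines and chemokines are secreted or membrane-shed proteins through which glia, neurons, vessels and immune cells signal to each other. Chemokines act on G-protein-coupled receptors and attract cells, interleukins of the IL-1 family act through receptors that activate the transcription factor NF-kB, and members of the IL-6 family act through the shared receptor chain gp130 and STAT3. In the hippocampus, low levels of several of these ligands, IL-1 beta, IL-6 and TNF among them, are known to influence synaptic plasticity, while higher levels accompany injury and inflammation. Many of their genes are switched on within an hour or so of a stimulus through NF-kB, AP-1 and CREB sites near the start of transcription, and in brain tissue microglia and astrocytes are known sources.

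Of the 7 members called higher after LTP at either time, the promoters of Il6, Cxcl1, Cxcl2 and Cxcl10 are shown first. These 4 were chosen because they lie on chromosome 5 and hold a match to the NF-kB (kappaB) consensus, so the matches in them are no finding about the 7. Of the other 3, Il1b had no match to any motif searched, Il11 had AP-1 matches only, and Osm had no window at hand. Each sequence is the 250 bases immediately before the RefSeq transcription start (GRCm38.p6), read 5′ to 3′ on the gene's strand. Capitals mark matches to the kappaB consensus or to AP-1 (TGANTCA), both strands searched.
Il6, chr5:30012864-30013113, plus strand: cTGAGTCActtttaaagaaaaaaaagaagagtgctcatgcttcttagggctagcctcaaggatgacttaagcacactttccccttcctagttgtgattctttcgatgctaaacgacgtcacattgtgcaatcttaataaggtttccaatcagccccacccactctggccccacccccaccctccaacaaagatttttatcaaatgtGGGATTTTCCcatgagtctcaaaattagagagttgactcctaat
Cxcl1, chr5:90890995-90891244, plus strand: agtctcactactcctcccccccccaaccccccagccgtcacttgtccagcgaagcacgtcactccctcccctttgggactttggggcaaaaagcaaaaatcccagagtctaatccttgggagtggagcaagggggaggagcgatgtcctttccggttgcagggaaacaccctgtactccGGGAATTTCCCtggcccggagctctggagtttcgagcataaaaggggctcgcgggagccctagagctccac
Cxcl2, chr5:90903649-90903898, plus strand: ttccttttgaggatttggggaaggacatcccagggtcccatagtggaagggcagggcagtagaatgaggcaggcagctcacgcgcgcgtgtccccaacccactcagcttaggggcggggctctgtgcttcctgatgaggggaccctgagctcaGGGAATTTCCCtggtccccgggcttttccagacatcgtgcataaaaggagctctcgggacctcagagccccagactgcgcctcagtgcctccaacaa
Cxcl10, chr5:92348890-92349139, minus strand: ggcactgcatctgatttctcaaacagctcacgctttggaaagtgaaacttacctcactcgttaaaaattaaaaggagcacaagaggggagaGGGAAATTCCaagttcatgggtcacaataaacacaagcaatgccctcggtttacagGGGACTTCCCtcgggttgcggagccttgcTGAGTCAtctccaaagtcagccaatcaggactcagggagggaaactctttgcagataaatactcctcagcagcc
In the Il6 window the kappaB match lay 44 to 35 bases before the start and an AP-1 match 249 to 243 bases before it. In Cxcl1 and Cxcl2, which lie close together, the same capital stretch matched on both strands, at 71 to 61 and 97 to 87 bases before the start. Cxcl10 held 2 kappaB matches, 159 to 150 and 103 to 94 bases before the start, and an AP-1 match at 74 to 68.

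Promoter windows were at hand for 24 of the 35 members (31 windows, since some genes have several starts). A kappaB match was present in 7 of the 31 windows, each of a different member (Il6, Cxcl1, Cxcl2, Cxcl10, Ccl9, Csf1 and Il16), whereas 3.9% of all 32851 promoter windows of the same length held one. AP-1 matched in 8 of the 31 (Il6, Cxcl10, Il11, Il1a, Il1rn, Il16, Lif and Ccl9) against 6.75% of all windows. The full cAMP response element (CRE, TGACGTCA) was found in 0 of the 31 and in 1.55% of all windows. Its core (TGACG, which is also part of the full element) was found in 4 (Il6, Cxcl1, Cxcl12 and Tgfb2) against 17.8% of all windows. These are letters in a window, given as a description.

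Levels differed widely among the ligands. Per kilobase of exon, and as the mean of the fitted libraries, Ccl3, a macrophage inflammatory chemokine, was highest in control 1 hr slices at 119 CPM, followed by Cx3cl1, the neuronal chemokine sensed by microglia through CX3CR1, at 83.4, Il1a at 46.5, Ccl4 at 35.6 and Il33, a nuclear alarmin, at 24.7. The lowest was Il10, an anti-inflammatory cytokine, at 0.117 CPM per kilobase. Its lowest library, control 1 hr replicate 3, held 2 counts and lay under the limit of detection. In LTP 3 hr slices Cx3cl1 (120 CPM per kilobase) and Ccl3 (112) remained the highest, and Il12a was the lowest at 0.246. Cx3cl1 alone took 29.2 to 36.1% of the members' summed CPM in every fitted library. Per the study's text its expression analysis used reads in coding regions. Noncoding genes do carry counts in the deposited tables (5286 of 18833 with at least 10 at 1 hr), so levels were also taken per kilobase of coding sequence. On that scale the order in control 1 hr was Ccl3 (331 CPM), Cx3cl1, Cxcl14 (118), Il1a (113) and Ccl4 (85.2), with Cxcl14 now above Il1a, and Il10 was again the last.

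**Figure D1:**
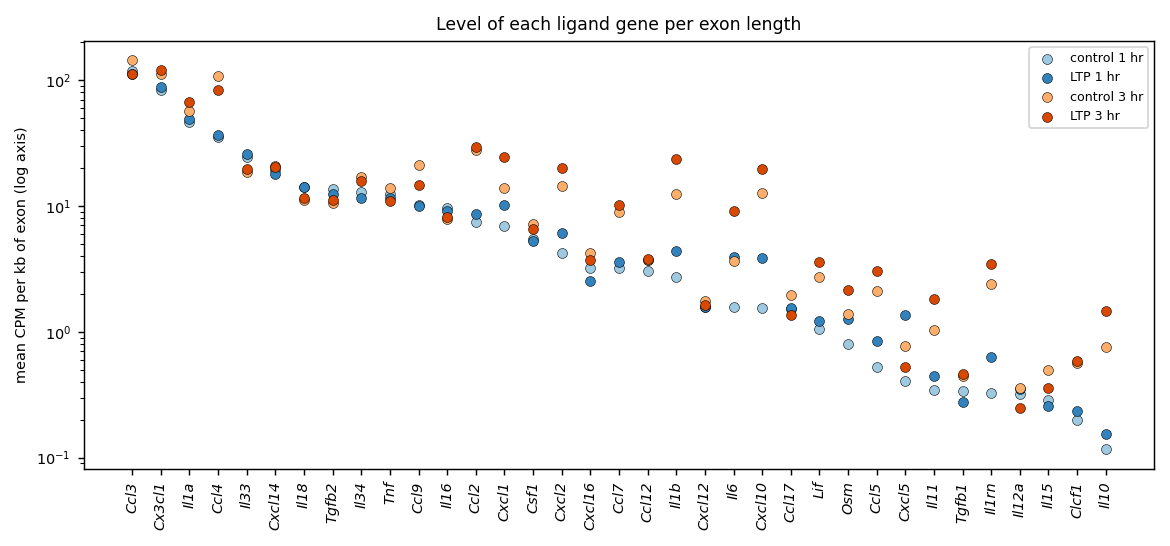
Mean CPM per kilobase of exon (log axis) of each of the 35 ligand genes in the 4 groups (2 libraries for control 1 hr, 3 for each other group), ordered by control 1 hr. Ccl3 and Cx3cl1 are highest in each group, and the 3 hr groups (orange) lie above the 1 hr groups (blue) for Il1b, Il1rn, Cxcl10 and Il10.

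At 1 hr after LTP induction, a small set of ligand genes was higher in LTP slices than in time-matched controls. Il6, the pleiotropic cytokine that signals through gp130, was 2.50-fold higher, Cxcl10, an interferon- and NF-kB-responsive ligand of CXCR3, 2.52-fold higher, and Cxcl1, a ligand of CXCR2, 1.501-fold higher. No ligand passed the test in the other direction. Calls here mean an adjusted p under 0.1 with a fold change over 1.2, by edgeR's quasi-likelihood test with adjustment over all genes tested. Thus 3 of 35 members were called higher, where 0.778% of the 17736 genes tested were called higher and 0.0113% lower. The median log2 change of the 35 members was 0.10, against 0.00 over all genes.

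Il6 (chr5:30013114-30019981) stood at 3.00 and 4.60 CPM in the fitted control libraries of 1 hr (replicates 1 and 3), at 4.51 in the library set aside, and at 8.94, 11.6 and 7.85 in LTP replicates 1, 2 and 3. The groups did not overlap, with the lowest LTP library well above the highest control. The log2 change was 1.32 (SE 0.20, adjusted p = 0.00363, n = 2 and 3), and Il6 stayed past the threshold in all 14 alternative fits (adjusted p up to 0.0871).

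Cxcl10 (chr5:92346638-92348889) was at 3.59 and 3.32 CPM in the fitted controls, at 5.46 in the library set aside and at 7.66, 10.999 and 7.29 in LTP slices. Every LTP library exceeded every control, the one set aside included. The log2 change was 1.33 (SE 0.19, adjusted p = 0.00202). The call was lost in 1 of 14 alternatives, a model of all 4 groups (adjusted p = 0.287, the highest over the alternatives, from 2.1e-13). A stretch of 5.91% of its exon bases overlaps Art3, and the strand setting of the authors' counting is not stated, so reads in that stretch may be shared.

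Cxcl1 (chr5:90891241-90893115) stood at 12.99 and 12.8 CPM in fitted controls, at 14.9 in the library set aside and at 18.7, 22.5 and 16.6 in LTP libraries. The groups did not overlap, but the margin was narrower than for Il6 or Cxcl10. The log2 change of 0.59 (SE 0.12, adjusted p = 0.0512) was not past the threshold without control replicate 1 (adjusted p = 0.404), without control replicate 3 (0.466), without LTP replicate 1 (0.154), in the model of 4 groups (0.127), or with control replicate 2 put back and the animals as a replicate block (0.106, against 0.0902 with that library and no block). Over its alternatives the adjusted p ranged from 6.04e-05 to 0.466.

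Other members were higher in every LTP library than in both fitted controls at 1 hr without passing the test. They were Cxcl2, Il1b, Il1rn, Osm, Ccl12 (adjusted p = 0.920) and Il11 (0.933). How many of all genes were separated in this way, with 3 libraries against 2, was not counted. Cxcl2, a CXCR2 ligand whose gene lies close to Cxcl1, was at 10.1 and 7.27 CPM in fitted controls and at 11.9, 13.5 and 12.5 in LTP libraries (log2 change 0.55, SE 0.14, adjusted p = 0.160). Il1b, encoding IL-1 beta, was at 4.44 and 6.04 against 6.10, 8.78 and 10.2 CPM (0.68, SE 0.20, adjusted p = 0.283), and Il1rn, encoding the natural antagonist of the IL-1 receptor, at 1.68 and 1.94 against 3.01, 4.91 and 2.47 CPM (0.94, SE 0.27, adjusted p = 0.278). Osm, encoding oncostatin M, was at 1.56 to 2.09 CPM in fitted controls and at 2.43 to 3.13 in LTP libraries (0.66, SE 0.22, adjusted p = 0.451). In animal 2 its LTP library was not above the control set aside (log2 ratio -0.03). Cxcl16, a chemokine made as a membrane protein, was lower: 7.95, 7.02 and 7.85 CPM in LTP libraries against 10.2 and 9.34 in fitted controls at 1 hr (-0.35, SE 0.12, adjusted p = 0.504), and 10.3, 11.1 and 12.1 against 12.3, 12.6 and 13.4 CPM at 3 hr (-0.18, SE 0.09, adjusted p = 0.293). Its groups did not overlap at either time and LTP was lower in 3 of 3 animals at each, but it was called in none of the 14 alternatives at either time. For none of these does the missed threshold show that the level was the same. At 1 hr 9 of the 35 members had an unadjusted p under 0.05, as did 1190 of the 17736 genes tested. With control replicate 2 put back and the animals as a replicate block Il1b passed (adjusted p = 0.0730, against 0.117 with that library and no block), as it did without LTP replicate 1 (0.0558). DESeq2 called Cxcl2 (adjusted p = 0.0508), as did the fit without control replicate 1 (0.0510), over a range up to 0.922. With no filter beyond 1 count Cxcl2, Il1b, Il1rn and Cxcl5 passed. Leaving out LTP replicate 3 brought in Cxcl2, Il1rn and Cxcl5, for 6 called members, while the calls over all genes went from 140 to 344.

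Cxcl5 (chr5:90759360-90761624), also a CXCR2 ligand, behaved unevenly. It was at 0.930 and 0.592 CPM in fitted controls, at 0.538 in the library set aside and at 3.55, 3.17 and 0.894 in LTP replicates 1, 2 and 3. Replicates 1 and 2 were far above the controls, while replicate 3 lay within their range. The log2 change of 1.75, the largest of the members at 1 hr, had an SE of 0.47 and an adjusted p of 0.198. It passed with control replicate 2 put back (adjusted p = 0.0595, and 0.0575 with the replicate block added), without LTP replicate 3 (0.000135) and with no filter beyond 1 count (7.23e-08), and over all alternatives the adjusted p ranged from 7.23e-08 to 0.833.

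**Figure D2:**
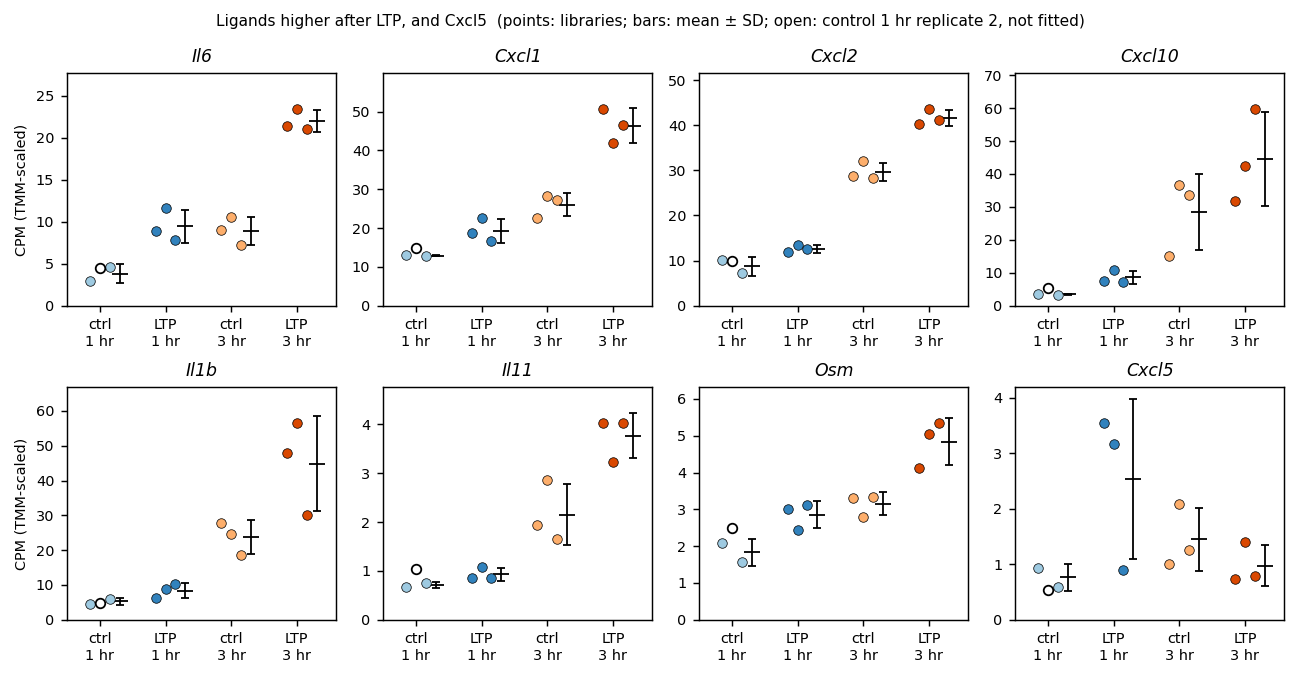
CPM of each library for the 7 ligands called higher after LTP at either time and for Cxcl5 (points: libraries, open point: control 1 hr replicate 2, not fitted; bars: mean ± SD of the fitted libraries). For Il6 and Cxcl1 every LTP library lies above every control of its time, and LTP 1 hr replicate 3 of Cxcl5 lies apart from the other two.

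At 3 hr after induction, the ligand genes that were higher were the CXCR2 ligands Cxcl1 and Cxcl2, Il1b, and the gp130 ligands Il6, Il11 and Osm. Il6 was 2.48-fold higher than in time-matched controls, Il1b 1.91-fold, Cxcl1 1.80-fold, Il11 1.77-fold, Osm 1.55-fold and Cxcl2 1.42-fold. Thus 6 of 35 members were called higher and 0 lower, where 5.07% of the 17508 genes tested were called higher and 1.53% lower. The members' median log2 change was 0.08, and 12 of them had an unadjusted p under 0.05, as did 3540 of the 17508 genes tested. The 1 hr and 3 hr comparisons have no library in common, and the calls at both times were Il6 and Cxcl1, that is 2 of the 3 members called at 1 hr and 2 of the 6 called at 3 hr.

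Il6 was at 9.02, 10.6 and 7.24 CPM in the 3 control libraries and at 21.4, 23.5 and 21.1 in the 3 LTP libraries. The groups lay far apart, and the 3 LTP values were close together. The log2 change was 1.31 (SE 0.13, adjusted p = 0.00220). Cxcl1 was at 22.7, 28.3 and 27.2 CPM in controls and at 50.8, 41.9 and 46.5 after LTP (log2 change 0.85, SE 0.11, adjusted p = 0.00557). Cxcl2 was at 28.7, 32.0 and 28.2 CPM in controls and at 40.2, 43.7 and 41.1 after LTP (0.51, SE 0.08, adjusted p = 0.0114). None of these 3 genes had overlapping groups, and each was called in all 14 alternative fits, with an adjusted p of at most 0.0201, 0.0399 and 0.0760.

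The other 3 calls at 3 hr, from the same 6 libraries, were lost when single libraries were left out. Il1b (chr2:129364570-129371139) was at 27.9, 24.8 and 18.5 CPM in controls and at 47.9, 56.6 and 30.0 in LTP libraries. LTP replicate 3 was only just above the highest control, but within its own animal it was higher, as in the other two animals (per-animal log2 ratios 0.69 to 1.19). The log2 change of 0.93 (SE 0.22, adjusted p = 0.0583) was not past the threshold without control replicate 1 (adjusted p = 0.129), 2 (0.209) or 3 (0.174) or without LTP replicate 1 (0.194), and its alternatives ranged from 0.00370 to 0.209. Il11 (chr7:4772373-4782859), which signals through gp130 with its own receptor chain, was at 1.95, 2.85 and 1.65 CPM in controls and at 4.02, 3.23 and 4.04 after LTP. Its log2 change was 0.82 (SE 0.20, adjusted p = 0.0644), and the call was lost without control replicate 1, control replicate 3 or LTP replicate 1 (adjusted p up to 0.224). Osm (chr11:4236420-4241026) was at 3.31, 2.79 and 3.35 CPM in controls and at 4.11, 5.06 and 5.36 after LTP. Its log2 change was 0.63 (SE 0.14, adjusted p = 0.0449), lost when any 1 of the 3 control libraries was left out (adjusted p up to 0.207).

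With the animals entered as a replicate block, 13 members were called at 3 hr instead of 6, and 1662 genes in all instead of 1155. The block added Cxcl10 (adjusted p = 0.0302), Il1rn (0.0159), Il10 (0.0273) and the CC chemokine Ccl5 (0.0684) as higher. It also added 3 CC chemokines as lower: Ccl9 (0.0222), Ccl4 (0.0375) and Ccl3 (0.0721). These 7 are described next. Ccl5 was at 1.77, 1.61 and 2.65 CPM in controls and at 3.02, 2.04 and 3.64 after LTP, with overlapping groups but a higher LTP library in 3 of 3 animals (log2 change without the block 0.53, SE 0.25, adjusted p = 0.286).

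Cxcl10 at 3 hr was at 15.2, 36.6 and 33.7 CPM in controls and at 31.7, 42.3 and 59.8 in LTP libraries. The groups overlapped, with LTP replicate 1 below control replicates 2 and 3, but LTP was higher in 3 of 3 animals (log2 ratios 0.21 to 1.06). The log2 change without the block was 0.66 (SE 0.32, adjusted p = 0.291, range over alternatives 0.0302 to 0.530). Il10 was at 1.30, 1.13 and 0.565 CPM in controls and at 2.14, 2.07 and 1.504 after LTP. Its groups did not overlap, and the log2 change of 0.96 (SE 0.29, adjusted p = 0.108) was called in 6 of 14 alternatives (adjusted p 0.0273 to 0.297). Il1rn, at 13.9, 16.4 and 9.58 against 21.2, 20.2 and 16.0 CPM, had no LTP library below the control of its animal and overlapped narrowly (log2 change 0.54, SE 0.18, adjusted p = 0.142). DESeq2 called it without the block (adjusted p = 0.0363), as did the fit with no filter beyond 1 count (0.0709), over a range up to 0.369.

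The CC chemokines Ccl9, Ccl4 and Ccl3 had log2 changes below zero at 3 hr, and none was past the threshold by edgeR with all 6 libraries, the low-count filter and no block. Ccl9 was at 58.1, 64.1 and 72.5 CPM in controls and at 34.0, 54.8 and 45.9 in LTP libraries, lower in 3 of 3 animals with no overlap. Its log2 change was -0.52 (SE 0.16, adjusted p = 0.109), and it was called lower by DESeq2 (adjusted p = 0.0166), by limma-voom (0.0995), with no filter beyond 1 count (0.0266), and without LTP replicate 2 (0.0119), over a range up to 0.295. Ccl4 was at 54.6, 81.4 and 79.3 CPM in controls and at 48.4, 55.4 and 60.8 after LTP (log2 change -0.38, SE 0.15, adjusted p = 0.200). Ccl3 was at 83.9, 124 and 125 CPM in controls and at 78.3, 79.9 and 99.5 after LTP (-0.35, SE 0.15, adjusted p = 0.242). Control replicate 1 was the lowest control for both and overlapped the LTP libraries, and without it both passed the threshold as lower (Ccl4 adjusted p = 0.0679, Ccl3 0.0969). Ccl4 also passed with no filter beyond 1 count (0.0986), and over the alternatives the adjusted p reached 0.542 for Ccl4 and 0.584 for Ccl3. Of the 8 CC chemokines, 0 were called in the unblocked test at 3 hr, and 3 had an unadjusted p under 0.05.

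Single libraries moved these counts. Leaving out LTP 3 hr replicate 2 raised the called members from 6 to 10 and the genes called in all from 1155 to 2170, adding Ccl5, Il10 and Lif, encoding leukemia inhibitory factor, as higher and Ccl9 as lower. Without LTP 3 hr replicate 3 the count was 8 (1329 genes in all), with Il10 and Il1rn added. Leaving out control 3 hr replicate 3 lowered it to 3 (415 genes in all), namely Il6, Cxcl1 and Cxcl2.

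**Figure D3:**
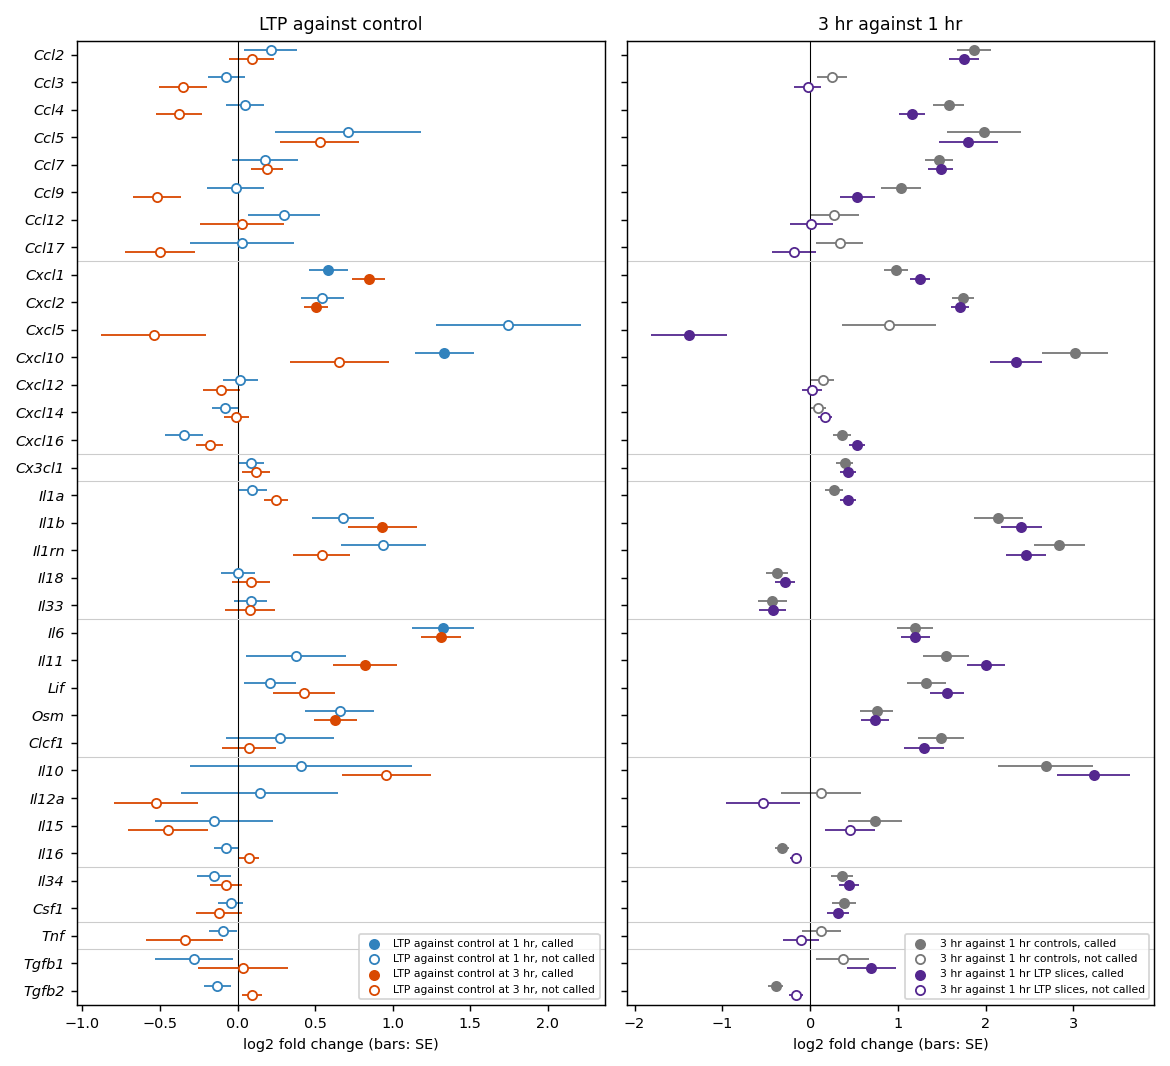
Fitted log2 fold changes of the 35 ligands, grouped by role, with bars of 1 SE (left: LTP against control at 1 hr and 3 hr; right: 3 hr against 1 hr in controls and in LTP slices). Filled points passed the test. On the left 3 points at 1 hr and 6 at 3 hr are filled, all to the right of zero, and on the right most points lie above zero in both kinds of slice.

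Whether the effect of LTP on a ligand differed between the time points was tested as the difference of both log2 changes in 1 model of 11 libraries. By edgeR's quasi-likelihood test 0 of 35 members passed, where 0.0269% of the 18584 genes tested had a larger change at 3 hr and 0.0323% a smaller one. One member, Cxcl5, had an unadjusted p under 0.05. Cxcl5 had gone up in 3 of 3 animals at 1 hr (log2 ratios 0.52 to 2.36, the highest against the control library set aside). It had gone down in 3 of 3 at 3 hr (-0.59 to -0.40), with 0.995, 2.09 and 1.25 CPM in controls and 0.727, 1.41 and 0.792 after LTP. The difference was -2.28 (SE 0.69, adjusted p = 0.500). DESeq2 called this member (adjusted p = 0.0834), as did the fit with no filter beyond 1 count (0.00164) and the one without LTP 1 hr replicate 3 (0.0997), whereas limma-voom called 0 members, and its adjusted p ranged from 0.00164 to 0.999. For Il6 the difference was close to zero, with a 95% interval from -0.48 to 0.47 on the log2 scale. For Cxcl2 the interval ran from -0.37 to 0.30, for Cxcl1 from -0.11 to 0.64 and for Cxcl10 from -1.67 to 0.33. The calls of Cxcl10 at 1 hr and of Cxcl2, Il1b, Il11 and Osm at 3 hr are therefore not shown to be particular to those times.

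The largest differences among the ligand genes lay between the time points. In vehicle-treated control slices, Cxcl10 was 8.09-fold higher at 3 hr than at 1 hr, Il1rn 7.16-fold, Il10 6.42-fold, Il1b 4.42-fold, Ccl5 3.95-fold, Ccl2 3.65-fold and Cxcl2 3.34-fold. Of the 35 members 22 were called higher and 4 lower, where 16.1% of the 18584 genes tested were called higher and 16.8% lower. The members' median log2 difference was 0.74, against -0.02 over all genes. In LTP slices 22 members were called higher and 3 lower, against 18.6% and 17.3% of all genes, with a median of 0.54. These contrasts use separate libraries, but of the same animals and in 1 shared model, so they are not independent of each other. Called higher in both were 21 members, which is 21 of 22 of each list. How many of all genes were called higher in both was not counted. Il15 was called in controls only (lost in 6 of 13 alternatives, including without control 1 hr replicate 1 or 3 or control 3 hr replicate 1 or 2, adjusted p up to 0.270). Tgfb1 was called in LTP slices only (0.70, adjusted p = 0.0622, lost in 5 of 13, including without LTP 1 hr replicate 2 or 3 and without LTP 3 hr replicate 3, where the difference was 0.31 and adjusted p = 0.352). Neither Il15 nor Tgfb1 passed the test of the difference above. The control contrast shares its libraries with the LTP comparisons above, so the values are set side by side and not correlated.

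By role, all 5 members of the IL-6 family were called higher with time in both kinds of slice. Lif was at 4.13 and 5.05 CPM in control 1 hr and at 9.09, 13.3 and 12.8 in control 3 hr (log2 difference 1.33, SE 0.22, adjusted p = 0.000835). Clcf1, another gp130 ligand, was 2.81-fold higher in controls and Il11 2.93-fold. Il6 was 2.30-fold higher in controls and 2.29-fold in LTP slices. Osm had the smallest differences of the 5, 1.69-fold in controls and 1.67-fold in LTP slices. In CPM, Il6 in control 3 hr slices (7.24 to 10.6) had reached the range of LTP 1 hr slices (7.85 to 11.6).

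Among CC chemokines, 5 of 8 were higher at 3 hr in both kinds of slice. Ccl2, the main monocyte attractant, was at 8.60 and 8.48 CPM in control 1 hr, at 8.14, 12.8 and 8.65 in LTP 1 hr, at 24.6, 36.4 and 34.5 in control 3 hr and at 30.2, 36.9 and 33.7 in LTP 3 hr. The 3 hr libraries were all above the 1 hr libraries, whereas LTP and control overlapped at each time. The difference with time was 1.87 in controls (SE 0.20, adjusted p = 5.89e-05) and 1.75 in LTP slices (SE 0.17, adjusted p = 1.78e-05), and for LTP against control it was 0.21 at 1 hr and 0.09 at 3 hr, neither past the threshold (adjusted p = 0.920 and 0.770). Ccl7, its neighbour on chromosome 11, was 2.76-fold and Ccl4 2.99-fold higher in controls. Ccl5 was at 0.801 and 0.213 CPM in control 1 hr and at 1.77, 1.61 and 2.65 in control 3 hr (1.98, SE 0.42, adjusted p = 0.00361). Ccl9 was 2.05-fold higher in controls and 1.45-fold in LTP slices, where the call was lost in 5 alternatives, among them without LTP 1 hr replicate 1 (adjusted p = 0.148) or 3 (0.156) and without LTP 3 hr replicate 2 (0.149). Ccl3, Ccl12 and Ccl17 were not called, with Ccl3 at 86.6 and 96.4 CPM in control 1 hr and at 83.9 to 125 in control 3 hr.

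Among CXC chemokines, Cxcl1, Cxcl2, Cxcl10 and Cxcl16 were higher at 3 hr in both kinds of slice, the call of Cxcl16 in controls being lost without control 1 hr replicate 3. Cxcl2 rose from 10.1 and 7.27 CPM in control 1 hr to 28.7, 32.0 and 28.2 in control 3 hr (log2 difference 1.74, SE 0.12, adjusted p = 7.97e-06, the smallest of the members). Cxcl10 went from 3.59 and 3.32 CPM to 15.2, 36.6 and 33.7 in controls (3.02, SE 0.38, adjusted p = 0.000143). Both genes were also higher at 3 hr in LTP slices, 3.26-fold and 5.10-fold. Cxcl5 was called lower in LTP slices (-1.38, SE 0.44, adjusted p = 0.0238), which was lost without LTP 1 hr replicate 1 (adjusted p = 0.115), and it was not called in controls (0.90, SE 0.53, adjusted p = 0.219), where the fitted groups did not overlap. There it was called higher with no filter beyond 1 count (adjusted p = 0.0405), in a fit of only the 2 groups (0.0400) and with control 1 hr replicate 2 put back (0.0939), over a range up to 0.575. Cxcl12 and Cxcl14, homeostatic chemokines, were called in no comparison, with log2 changes between -0.11 and 0.17 over the LTP and time comparisons. Cx3cl1 was 1.31-fold higher in controls and 1.35-fold in LTP slices at 3 hr.

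All 5 IL-1 family genes were called with time, 3 of them higher and 2 lower, in both kinds of slice. Il1b was 4.42-fold higher in controls and 5.29-fold in LTP slices, that is from 4.44 and 6.04 CPM to 18.5 to 27.9 in controls and from 6.10 to 10.2 CPM to 30.0 to 56.6 in LTP slices. Il1rn was at 1.68 and 1.94 CPM in control 1 hr and at 13.9, 16.4 and 9.58 in control 3 hr (log2 difference 2.84, SE 0.29, adjusted p = 4.86e-05). Il1a, the other IL-1 receptor agonist, was higher by 0.28 in controls (adjusted p = 0.0560, lost without control 1 hr replicate 1 or control 3 hr replicate 3) and by 0.44 in LTP slices (adjusted p = 0.00245), and 11.2% of its exon bases overlap Gm14023. Il18 and Il33, whose proteins are held ready in the cell, were lower. Il33 differed by -0.43 in controls (SE 0.17, adjusted p = 0.0640) and -0.43 in LTP slices (SE 0.15, adjusted p = 0.0381). Both were sensitive to single libraries, with the Il18 call lost in 3 alternatives for controls and 5 for LTP slices, and the Il33 call in 6 and 4, among them the fit of Il33 with control 1 hr replicate 2 put back (adjusted p = 0.176). In controls both calls were lost without control 1 hr replicate 1 or 3 or control 3 hr replicate 3, and that of Il33 also without control 3 hr replicate 1 (adjusted p up to 0.255). In LTP slices both were lost without LTP 1 hr replicate 2 or 3, and without LTP 3 hr replicate 3 (Il18 -0.16, adjusted p = 0.266, and Il33 -0.30, adjusted p = 0.136), and that of Il33 also without LTP 3 hr replicate 1 (0.129).

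**Figure D4:**
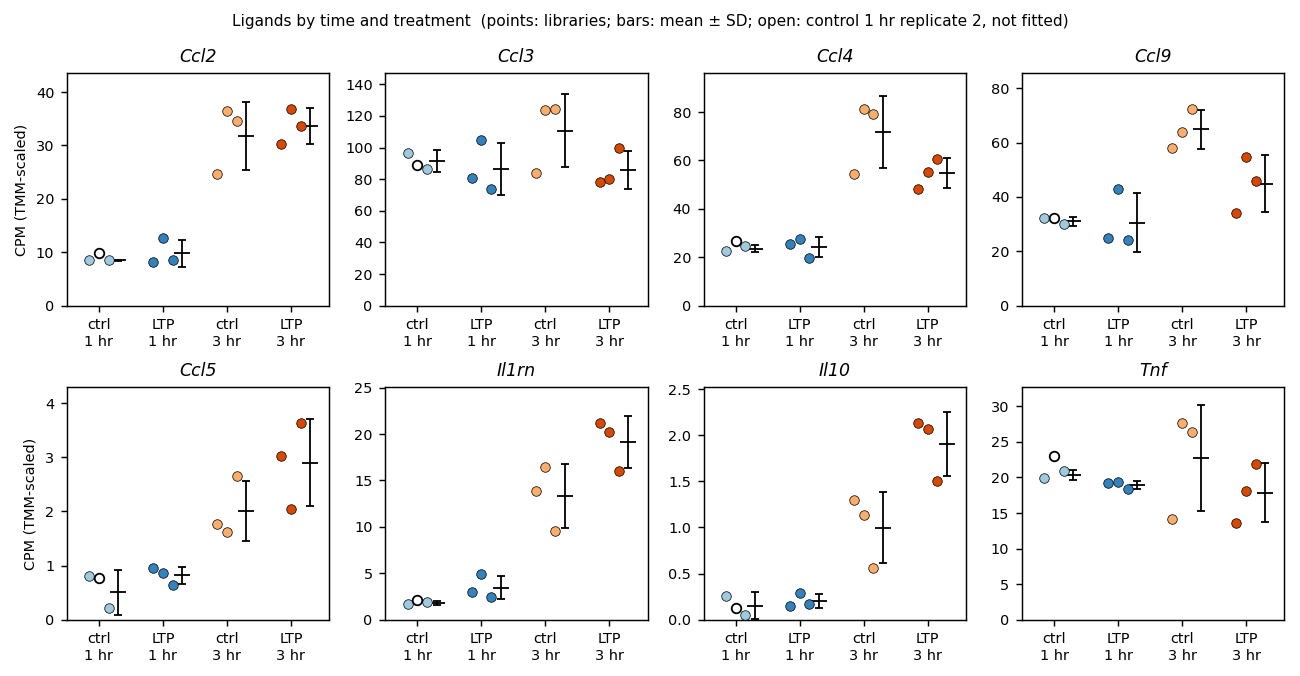
CPM of each library for Ccl2, Ccl3, Ccl4, Ccl9, Ccl5, Il1rn, Il10 and Tnf (points: libraries, open point: control 1 hr replicate 2, not fitted; bars: mean ± SD of the fitted libraries). Ccl2, Ccl4, Il1rn and Il10 are higher in every 3 hr library than in any 1 hr library, whereas Ccl3 and Tnf overlap between the time points.

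Of the remaining interleukins and growth factors, Il10 was the member with the largest difference in LTP slices, 9.39-fold, from 0.146, 0.290 and 0.165 CPM to 2.14, 2.07 and 1.504 (log2 difference 3.23, SE 0.42, adjusted p = 0.000114). Its 1 hr libraries held few counts, so the fold is less certain than the direction. Il16, a CD4 ligand, was lower in controls (-0.32, SE 0.08, adjusted p = 0.00631), lost without control 1 hr replicate 3 (-0.26, adjusted p = 0.0895, under the fold threshold), with 17.4% of its exon bases shared with other genes. Tgfb2 was also lower in controls, at 87.0 and 71.3 CPM against 60.9, 62.0 and 61.4 (-0.39, SE 0.08, adjusted p = 0.00376), lost without control 1 hr replicate 1 (-0.20, adjusted p = 0.139). In LTP slices Il16 (-0.16, adjusted p = 0.0757, under the fold threshold) and Tgfb2 (-0.16, adjusted p = 0.113) were not called. Neither gene passed the test of the difference of the LTP effects. Il34 and Csf1, the ligands of the CSF1 receptor on which microglia depend, were higher in both kinds of slice by 0.32 to 0.44 on the log2 scale. The Csf1 call was lost in controls without control 1 hr replicate 1 or 3 or control 3 hr replicate 2 or 3 (adjusted p up to 0.175). In LTP slices it was lost without LTP 1 hr replicate 2 or 3 and without LTP 3 hr replicate 3 (0.17, adjusted p = 0.257), and the Il34 call in controls without control 1 hr replicate 1 or 3. Exons of Cxcl16 (18.3% of bases), Clcf1 (8.17%) and Il34 (4.95%) also overlap other genes. Tnf, encoding the cytokine after which the TNF family is named, was called in no comparison and lay at 19.9 and 20.9 CPM in control 1 hr, 19.2, 19.3 and 18.3 in LTP 1 hr, 14.2, 27.7 and 26.4 in control 3 hr and 13.6, 18.1 and 21.9 in LTP 3 hr. Control 3 hr replicate 1 was about at the level of LTP 3 hr replicate 1 and well under the other two controls, and LTP was lower in 3 of 3 animals at each time, with no overlap of the fitted groups at 1 hr. The 95% interval for LTP against control ran from -0.29 to 0.10 at 1 hr and from -0.90 to 0.22 at 3 hr. The members called in no comparison were Ccl3, Ccl12, Ccl17, Cxcl12, Cxcl14, Il12a and Tnf. Without control 3 hr replicate 1, Ccl3 (adjusted p = 0.0466), Ccl12 (0.0661) and Tnf (0.0791) were called higher at 3 hr than at 1 hr in controls, and Ccl3 also with no filter beyond 1 count (0.0613). Without LTP 1 hr replicate 1, Il12a was called lower at 3 hr in LTP slices.

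Genes related to these ligands were taken from 2 lists, and whether they act before or after the ligands was not tested. Of 28 genes of the NF-kB pathway and cytokine feedback, all tested, 2 were higher after LTP at 1 hr and 6 at 3 hr, and none lower, where 0.778% and 5.07% of all genes were called higher. Ptgs2, encoding cyclooxygenase 2, was at 161 and 163 CPM in fitted controls and at 302, 375 and 311 in LTP libraries at 1 hr (log2 change 1.03, SE 0.09, adjusted p = 1.29e-05). Nfkbiz, encoding the atypical inhibitor IkB zeta, was called at both times (0.48 and 0.50). Nfkb1, encoding the NF-kB subunit p105/p50, was at 65.1, 69.1 and 65.2 CPM in controls and at 108, 112 and 114 after LTP at 3 hr (0.75, SE 0.06, adjusted p = 0.000651). At 1 hr its LTP libraries were at 50.1, 54.9 and 51.6 CPM against 49.4 and 50.7, and it was the only gene of this list whose LTP effect differed between times (difference 0.69, SE 0.09, adjusted p = 0.0166). Nlrp3, Nfkbie and Tnfaip3 were also higher at 3 hr. With time, 20 of the 28 were higher and 1 lower in controls, and 21 higher and 1 lower in LTP slices, the lower ones being Casp1 in controls and Ptgs2 in LTP slices, where 16.1% and 18.6% of all genes were called higher. Socs3, the feedback inhibitor of gp130 signalling, was higher by 1.14 (SE 0.10, adjusted p = 2.01e-05) and Tnfaip3, encoding the NF-kB inhibitor A20, by 0.93 (SE 0.08, adjusted p = 2.01e-05) in controls. The median log2 difference of the list with time was 0.87 in controls and 0.81 in LTP slices, beside 0.74 and 0.54 for the ligands.

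Of 42 receptor genes, 30 were tested in the comparisons of LTP with control and 32 in the model of 4 groups, and the untested ones included Cxcr2, Ccr2 and Cxcr3, the main receptors of Cxcl1 and Cxcl2, of Ccl2 and of Cxcl10. No receptor was called at 1 hr by edgeR, and 0 of the 30 had an unadjusted p under 0.05. At 3 hr Osmr, encoding the oncostatin M receptor, was higher at 96.0, 86.7 and 86.2 CPM against 66.8, 75.0 and 64.2 (log2 change 0.40, SE 0.08, adjusted p = 0.0299). Tnfrsf1a, encoding TNF receptor 1, was lower at 9.61, 10.5 and 11.2 CPM against 13.2, 15.1 and 14.3 (-0.43, SE 0.09, adjusted p = 0.0373). With time, 7 of 32 receptors were higher and 1 lower in controls, and 9 higher and 1 lower in LTP slices, so that 21.9% and 28.1% were higher beside 16.1% and 18.6% of all genes. Tnfrsf1b (0.91, SE 0.14, adjusted p = 0.000516) and Ccr7 (2.76, SE 0.63, adjusted p = 0.00539) were among the higher ones in controls. The lower one in both was Cx3cr1, the receptor of Cx3cl1 and itself a microglial marker (-0.81 in controls, SE 0.12, adjusted p = 0.000457).

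Cell type markers stood beside the ligands as follows. By edgeR 0 of 15 microglial markers were called for LTP at either time (0 at 1 hr and 1 at 3 hr with an unadjusted p under 0.05). At 1 hr 12 of 15 had a log2 change below zero (median -0.08) and at 3 hr 15 of 15 (median -0.10), beside medians of 0.11 and -0.16 for the 8 CC chemokines. The marker calls with time that follow stand beside 16.8% of all genes called lower and 16.1% higher in controls, and 17.3% and 18.6% in LTP slices. With time, 8 of 15 were lower at 3 hr than at 1 hr in controls and 8 of 15 in LTP slices, with none higher and medians of -0.28 and -0.34 on the log2 scale. Their summed CPM was 440.7 to 451.8 in control 1 hr, 411.5 to 446.4 in LTP 1 hr, 336.0 to 372.3 in control 3 hr and 307.4 to 344.9 in LTP 3 hr. The ligands' sum, in the same order, was 999.9 to 1000.2, 1016 to 1051, 1246 to 1416 and 1383 to 1518. In the control 1 hr library set aside the ligands summed to 1058, above every LTP 1 hr library, and the microglial markers to 423.3. P2ry12, a microglial purinergic receptor, was at 38.6 and 39.9 CPM in control 1 hr and at 16.3, 15.5 and 12.7 in control 3 hr. Its difference was well beyond the list's median. Over the 15 markers the log2 differences in controls ran from -1.435 to 0.114, with 2 above zero. Markers of neutrophils and monocytes, which also make Il1b, Cxcl2 and Osm, were near absent: 0 of 10 passed the low-count filter and the 10 together summed to at most 0.336 CPM in any fitted library, with 1 to 5 of them at 0 in every fitted library of a group. Of 6 T cell markers 1 was tested and not called, and 7 markers of border macrophages summed to between 5.07 and 8.40 CPM, with 0 called in any comparison. Endothelial markers summed to 129.7 to 134.6 CPM in control 1 hr and 108.4 to 116.0 in LTP 1 hr, with 7 of 7 below zero at 1 hr and 0 called. Of 6 mural markers, Myh11, a smooth muscle myosin, was called lower after LTP at 1 hr (-0.68, SE 0.14, adjusted p = 0.0465). With time in controls, 4 of 7 endothelial markers were lower and none higher, and 3 of 6 mural markers were lower and 1 higher. In LTP slices 2 endothelial markers were lower and 2 higher, and 3 mural markers were lower and 2 higher. Of 7 neuronal markers 3 were lower with time in controls and 2 in LTP slices, with none higher. Of 5 oligodendrocyte markers 2 were higher with time in each kind of slice, and for LTP at 1 hr 5 of 5 were above zero, 3 with an unadjusted p under 0.05 and 0 called. Of 8 astrocyte markers 1 was higher and 1 lower with time in controls, and 1 lower in LTP slices. In LTP slices 2 of 5 red cell markers and 1 of 4 choroid plexus markers tested were lower with time. Fibroblast markers, whose 5 genes were called in no comparison, summed to 18.5 to 33.5 CPM in control 1 hr and 14.8 to 21.02 in LTP 1 hr, and to 20.4 to 29.5 in control 3 hr and 13.5 to 22.9 in LTP 3 hr. Their 5 log2 changes for LTP were below zero at both times. The part of these cells in the ligands' differences was not tested.

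**Figure D5:**
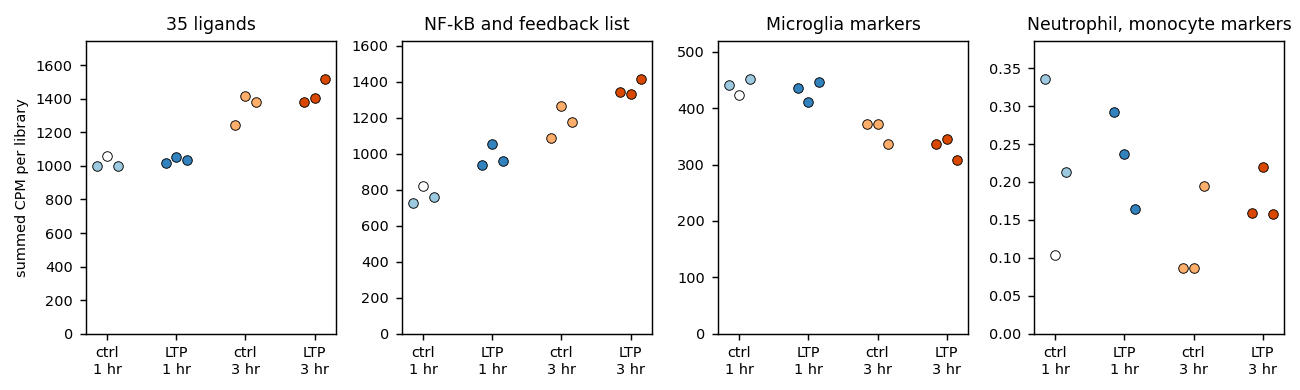
Summed CPM per library (linear axes from 0) of the 35 ligands, the 28 genes of the NF-kB and feedback list, 15 microglial markers and 10 neutrophil and monocyte markers, by group (open point: control 1 hr replicate 2, not fitted). The ligand and NF-kB sums are higher in the 3 hr groups than in the 1 hr groups, the microglial sum is lower, and neutrophil and monocyte markers stay under 0.4 CPM.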

How the data were processed

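Raw counts per Ensembl gene, deposited by the authors in one table per time point, were made by aligning paired-end reads of stranded total RNA libraries depleted of ribosomal RNA to GRCm38 with STAR and counting in R with GenomicFeatures and GenomicAlignments. The strand setting of the counting is not stated. Library totals were 37118382 to 50815001 counts, and 40217 of 41091 genes matched GENCODE M21.

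The 35 members, the receptor, NF-kB and marker lists and the tests were chosen with earlier results of these data known. Named genes are all members, up to 5 called genes with the smallest p of each list and comparison, Arc, and markers beside a result. Where other genes of the lists are named, they were chosen after their values were seen.

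Counts were filtered (filterByExpr), scaled by TMM and tested with edgeR 4.0.16 (quasi-likelihood F test, R 4.3.3), with Benjamini-Hochberg adjustment over all genes tested. Genes were called at an adjusted p under 0.1 if they also changed over 1.2-fold, or by the adjusted p alone for the difference of both LTP effects. LTP was compared with control in 5 libraries at 1 hr and 6 at 3 hr, and time points and the difference in 1 model of 11 libraries. CPM values are TMM-scaled over 12 libraries. Errors are SE of the log2 change, and intervals are 95%.

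Libraries with the same number come from the same animal per the labels. Their deviations from the group means correlated by -0.0149, -0.156 and 0.0750 in the 3 animals at 1 hr and by 0.0385, -0.0275 and 0.218 at 3 hr. These correlations were low, so the counts themselves give little sign of the pairing. Alternatives were DESeq2 1.42.0, limma-voom 3.58.1, other scaling and filters, other sets of libraries, the animal as a block, and each library left out. Replicate libraries differed by more than sampling noise (chi-square at least 9.49 per degree of freedom), so none was counted as a duplicate. The scripts recovered known changes in simulated counts. Promoter sequences are from RefSeq (GRCm38.p6).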

Additional observations from a re-analysis of the deposited data

How the results depend on the processing

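No called ligand changed direction in any alternative. Of the calls, 1 of 3 for LTP at 1 hr and 3 of 6 at 3 hr held in all 14 alternative fits. For time, 17 of 26 in controls and 19 of 25 in LTP slices held in each of the 13 fits that tested the gene. Ccl5 and Il10 are among both, though not tested where at least 10 counts were asked of every library. Without a filter beyond 1 count, 347 genes and 7 members were called at 1 hr (140 and 3 with it) and 10 members at 3 hr, and 102 genes and 1 member differed in their LTP effect (11 and 0 with it). The model of 4 groups called 1 member at 1 hr. DESeq2 gave 80 genes and 1 member for the difference of the LTP effects. With the animals as a replicate block, 13 members (1662 genes) were called at 3 hr instead of 6 (1155). At 1 hr and for the difference the block was fitted with control 1 hr replicate 2 put back, so both changed together: 4 members at 1 hr with and without the block, and 7 genes for the difference (10 without the block), with 0 members in both. The block changed no member's call beyond those named above. The cause of these shifts was not tested, and the block could not be entered for contrasts across time. Leaving out 1 library gave 69 to 344 genes and 2 to 6 members at 1 hr, 228 to 2170 genes and 3 to 10 members at 3 hr (both highest without LTP 3 hr replicate 2), and 1 to 67 genes and 0 to 1 members for the difference. Some of these fits left control 1 hr with 1 library, which was then assumed to vary like the other groups. Control 1 hr had 2 fitted libraries, and Il10 had 2 to 11 counts per library at 1 hr, which limits the precision of both.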
